A study of Mus musculus with 51 samples.

Results

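The proteasome genes described here were the protein-coding mouse genes whose symbol began with Psma, Psmb, Psmc, Psmd, Psme, Psmf or Psmg followed by a digit. The rule found 50 of 50600 annotated genes, after 4 pseudogenes had been left out. The 5 immunoproteasome genes Psmb8, Psmb9, Psmb10, Psme1 and Psme2 are given apart from the other 45. Of the 50, 48 encode a proteasome subunit, activator, regulator or assembly factor. The remaining 2 matched by symbol alone: Psmc3ip is a meiotic recombination factor, and Psme2b is a copy of Psme2.

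RNA was measured in neutrophils from inflamed mice and in cultured neutrophils, over 43 libraries in all. The mice were CX3CR1GFP Ly6GCre-tdTomato animals, in which Cre is driven from the neutrophil gene Ly6g. They received 100 µg of zymosan, a yeast cell wall particle, in a 6-day air pouch under the skin, and Ly6G+ cells were sorted after 4 h. This gave 5 exudate (pouch fluid), 2 membrane (pouch wall), 5 blood and 3 bone marrow libraries, and 2 libraries per tissue for open chromatin. The cultured cells were ER-Hoxb8 neutrophils, derived from progenitors held by estrogen-regulated Hoxb8 and differentiated for 5 days. They received zymosan at 50 µg/ml for 2 h or the solvent DMSO, with 2 libraries per group. Set 1 held cells labelled CEBPB-/-, cells labelled JUNB-/- and WT cells, each with zymosan and with DMSO. Set 2 held cells labelled IRF5-/-, cells labelled RELB-/- and WT cells, each with both agents. A later table added cells labelled RUNX1-/- and KLF6-/- with DMSO only, compared with the WT libraries of set 2. No WT library was added with them, so the line and the later addition cannot be told apart. All cultured lines carry the Hoxb8 transgene, and nothing in the sources used here says how many clones stand behind a line. The labels do not say that replicate libraries came from separate cultures or animals, so p-values measure only the spread between libraries. In such bulk samples, fewer cells of a type and less RNA per cell cannot be told apart.

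The proteasome is the main protease for ubiquitin-tagged proteins in the cytosol and nucleus. Its barrel-shaped 20S core is built from alpha rings (Psma genes) and beta rings (Psmb genes), and the caspase-like, trypsin-like and chymotrypsin-like cuts are made by the products of Psmb6, Psmb7 and Psmb5. The 19S cap, made of Psmc ATPases and Psmd subunits, binds ubiquitin, removes it and unfolds the substrate. Under interferon, Psmb9, Psmb10 and Psmb8 take the places of Psmb6, Psmb7 and Psmb5 to form the immunoproteasome, which shapes peptides for MHC class I, and Psme1 with Psme2 form the PA28 activator ring. Psmg genes encode chaperones of core assembly, and Psmd5, Psmd9 and Psmd10 encode chaperones of the 19S base.

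The immunoproteasome genes lie at 3 loci (build GRCm38). Psmb9 (chr17:34181988-34187764, minus strand) and Psmb8 (chr17:34197721-34201454, plus strand) flank the peptide transporter gene Tap1 in the MHC region. Psme1 (chr14:55578123-55581529, plus) and Psme2 (chr14:55587441-55591113, minus) are near neighbours, and Psmb10 stands alone at chr8:105935735-105938444 (minus). In the authors' deposited list of merged open-chromatin sites, 43 of the 50 proteasome genes had a site within 1000 bp of the gene start, against 50.9% of 20822 protein-coding genes. Sites that gained accessibility were counted in the same window, by the authors' deposited comparisons. For exudate over bone marrow, 3 of the 50 had one, against 1.77% of all genes, and these were Psmb8, Psme2 and Psmb10. The authors' −log10 adjusted p was 5.38 at Psmb8 (chr17:34198084-34198587), 5.33 at Psme2 (chr14:55589996-55590495) and 1.77 at Psmb10 (chr8:105937886-105938385). For exudate over blood, Psmb8 (2.91) and Psme2 (4.18) had the same gained sites, against 1.43% of all genes. For membrane over bone marrow, Psmb10 (4.28) and Psme2 (4.01) had them, against 1.52% of all genes, and for membrane over blood Psmb10 (1.55) and Psme2 (3.06), against 1.2%. Within 1000 bp of these annotated starts, no proteasome gene had a gained site for blood over bone marrow (0.134% of all genes). None had a lost one in any of the 5 comparisons (0.322% to 2.12% of all genes). RefSeq starts, used below, can differ from the annotated ones and were not counted. A site lost for membrane over bone marrow (chr2:151741056-151741602, 1.90) lay 2584 bp from the annotated start of Psmf1. It covered a RefSeq promoter window of that gene (chr2:151741261-151741560).

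The promoter sequences of these 5 genes are shown because Psmb8, Psme2 and Psmb10 gained a site beside theirs. Each run has 220 bases from RefSeq (GRCm38.p6), written along the gene's own strand, ending 1 base before the RefSeq start except for Psme1, which runs from 200 bases before to base 19. Capitals mark a match to 1 of 8 motifs searched on both strands.
Psmb8 chr17:34197975-34198194 (+): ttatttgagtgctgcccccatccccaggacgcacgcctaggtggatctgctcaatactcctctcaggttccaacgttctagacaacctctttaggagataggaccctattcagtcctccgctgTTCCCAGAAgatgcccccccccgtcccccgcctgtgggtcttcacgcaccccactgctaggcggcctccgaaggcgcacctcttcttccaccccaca
Psmb9 chr17:34187331-34187550 (-): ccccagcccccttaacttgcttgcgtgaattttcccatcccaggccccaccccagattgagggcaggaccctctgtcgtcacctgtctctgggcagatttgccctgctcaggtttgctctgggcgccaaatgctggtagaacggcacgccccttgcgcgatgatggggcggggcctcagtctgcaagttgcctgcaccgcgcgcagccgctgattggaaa
Psmb10 chr8:105938393-105938612 (-): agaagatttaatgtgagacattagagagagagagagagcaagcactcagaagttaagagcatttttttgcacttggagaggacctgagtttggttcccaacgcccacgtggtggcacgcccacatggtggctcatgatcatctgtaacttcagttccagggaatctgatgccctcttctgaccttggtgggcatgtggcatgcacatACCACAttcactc
Psme1 chr14:55578294-55578513 (+): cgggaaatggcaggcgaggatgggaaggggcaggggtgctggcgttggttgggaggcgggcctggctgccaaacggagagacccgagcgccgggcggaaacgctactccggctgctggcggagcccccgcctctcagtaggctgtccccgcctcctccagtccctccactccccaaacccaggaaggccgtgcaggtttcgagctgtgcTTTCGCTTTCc
Psme2 chr14:55591102-55591321 (-): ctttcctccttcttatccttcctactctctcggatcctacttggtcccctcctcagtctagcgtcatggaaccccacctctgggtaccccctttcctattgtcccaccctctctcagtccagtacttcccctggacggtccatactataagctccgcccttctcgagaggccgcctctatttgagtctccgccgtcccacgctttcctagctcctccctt
The capitals in Psmb8 are a gamma-activated site (TTCNNNGAA), a form bound by STAT factors, and it lies inside the site gained in exudate, which covers 111 of the 220 bases. In Psmb10 the capitals are a RUNX site (TGTGGT, here on the other strand), and the gained site begins just inside the gene. Those in Psme1 are an interferon-stimulated response element on the other strand, which begins at base 9, past the RefSeq start. Only this run was extended past the start, and its bases before the start hold no match. The runs of Psmb9 and Psme2 hold no capitals, which says only that none of the letters searched for stand in these windows. The runs of Psmb9, Psme1 and Psme2 lie wholly within a merged site, and the gained Psme2 site lies inside the gene, 618 bp from its annotated start.

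Promoter windows of 300 bases were found for 42 of the 50 genes (45 windows). The interferon-stimulated response element was in 11.1% of them, those of Psmb3, Psmd4, Psmd9, Psme1 and Psmg4, against 3.44% of all 32851 windows. The gamma-activated site was in 6.67% (Psmb8, Psmd2 and Psmg1) against 8.3%, and the RUNX site in 15.6% against 16.8%. The NF-kB consensus was in 13.3% against 8.46%, the AP-1 site (TGANTCA) in 4.44% against 7.81%, and the C/EBP site (TTGCNNAA) in 8.89% against 10.8%. The KLF site (CCACACCC) was in 2.22% against 3.56%, and the antioxidant response element (TGACNNNGC), a form bound by Nfe2l1 and Nfe2l2, in 13.3% against 12.4%. A match is a description of letters, not of binding.

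Counted read pairs per library, in M, ran between 9.24 and 19.1 for tissues, between 19.4 and 32.4 for set 1, between 24.0 and 34.3 for set 2, and between 26.9 and 30.1 for the later table. Levels are given as CPM, the usual per-library rate of counts after scaling by the trimmed mean of M-values (TMM), and a gene was called when edgeR's quasi-likelihood test gave an adjusted p under 0.05 over all genes tested. The targeted genes did not all follow their labels in DMSO. Cebpb had 536.8 and 510.1 CPM in cells labelled CEBPB-/-, against 478.3 and 535.9 CPM in WT cells. Runx1 had 155.5 and 151.8 CPM in cells labelled RUNX1-/-, against 59.28 and 61.48 CPM in WT cells, and Klf6 had 851.1 and 852.0 CPM in cells labelled KLF6-/-, against 621.6 and 637.8 CPM in WT cells. Junb (log2 change -0.85), Irf5 (-0.28) and Relb (-1.32) were lower in the cells labelled for them. Counts over whole genes do not show whether a deleted part was transcribed, so the lines are called by their labels and no direction below is tied to loss of the factor. Neutrophil markers were detected in all groups, and a list of 5 eosinophil and mast cell genes summed to 3471 to 3539 CPM in WT cells of set 2 with DMSO and to at most 6.18 CPM in any tissue library.

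Scaling bears on every direction in the culture data. With scaling by total counts instead of TMM, the log2 changes of all genes moved down together by 0.70 in WT cells of set 1 and 0.87 in WT cells of set 2, zymosan over DMSO, so values below are relative to the bulk of expressed genes. For cells labelled RUNX1-/- over WT cells with DMSO the move was upward, by 0.36. A downward move can turn only higher signs, and an upward move only lower ones. Ratios between genes of the same library do not depend on the choice of scaling. Every background share in the culture results is from the TMM fit of all libraries of a table. No share of all genes stands beside counts under other scalings, in other fits or without a library. Such counts show how the split moved and do not set the members apart from other genes.

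With DMSO, core subunits led the proteasome genes per length in both WT sets. In set 1, Psma2 (54.0 CPM per kb of exon), Psma6 (51.8), Psmb1 (45.2), Psme2 (43.3) and Psmb5 (41.6) were highest, as means of 2 libraries. In set 2, Psma6 (60.0), Psma2 (55.7), Psme2b (50.6) and Psmb1 (50.5) led. At the other end stood assembly factors: Psmd5 (2.14 in set 1, 1.34 in set 2), Psmg3 (0.848 and 0.944) and Psmd9 (0.545 and 0.806). Psmb11, the core subunit of thymic cortex, and Psma8, an alpha subunit of the testis, were at or near 0 throughout. Psmc3ip was low, at 0.565 and 0.514 CPM in set 1 and 1.20 and 0.869 CPM in set 2.

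In WT cells, 2 h of zymosan moved proteasome genes in both directions, and several roles held calls both ways. Of 48 tested in set 1, 18 were called higher (background 35.7% of 12899 genes) and 16 lower (background 39.9%), and total-count scaling turned this to 1 higher and 42 lower. Set 2 gave 19 higher (background 36.3% of 13779) and 15 lower (background 32.1%), with 3 and 43 under total-count scaling. The splits moved with other choices too: set 1 gave 24 higher and 9 lower under RLE scaling (edgeR's relative log expression), and set 2 gave 12 and 18 without zymosan library 1 and 10 and 19 without zymosan library 2. With TMM scaling and all libraries, the counts lie near those of all genes. So did the medians: 0.08 for proteasome genes and -0.07 for all genes in set 1, and 0.06 and 0.05 in set 2. Between the sets, 14 genes were called higher in both (77.8% of the set 1 list, 73.7% of the set 2 list) and 10 lower in both (62.5% and 66.7%). Only Psmc2 and Psme2b were called in opposite directions. The overlap of the sets over all genes was not computed, so this agreement is not a result about proteasome genes. Called higher on this scale, though mostly not under total-count scaling, were the standard catalytic subunits (2 of 3 in set 1, 3 of 3 in set 2) and most 19S non-ATPase subunits (7 and 6 of 11). Called lower were the catalytic subunits of the immunoproteasome (3 of 3 and 2 of 3) and, in both sets, the 19S chaperone Psmd5, the regulator Psmf1 and the core chaperone Psmg3. Total-count scaling moved all changes down in both sets, so it could not turn a lower sign and is no check of these calls. Beside these values, 8 neutrophil markers summed to 20550 to 20890 CPM with zymosan and 25530 to 27180 CPM with DMSO in set 1, and to 60220 to 61560 CPM and 46810 to 48910 CPM in set 2. The eosinophil and mast cell list summed to 1376 to 1442 CPM with zymosan and 1635 to 1639 CPM with DMSO in set 1, and to 5508 to 5523 CPM and 3471 to 3539 CPM in set 2. The 4 dendritic cell genes summed to 212 to 213 CPM with zymosan and 71.0 to 71.5 CPM with DMSO in set 1, and to 272 CPM in each zymosan library and 64.3 to 65.6 CPM with DMSO in set 2. The 3 platelet genes summed to 62.7 to 73.6 CPM against 32.3 to 32.5 CPM in set 1 and 35.1 to 37.0 CPM against 24.3 to 24.9 CPM in set 2, and the T and NK cell and fibroblast lists, higher with zymosan too, stayed under 8 CPM. Their part in the result was not tested.

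**Figure D1:**
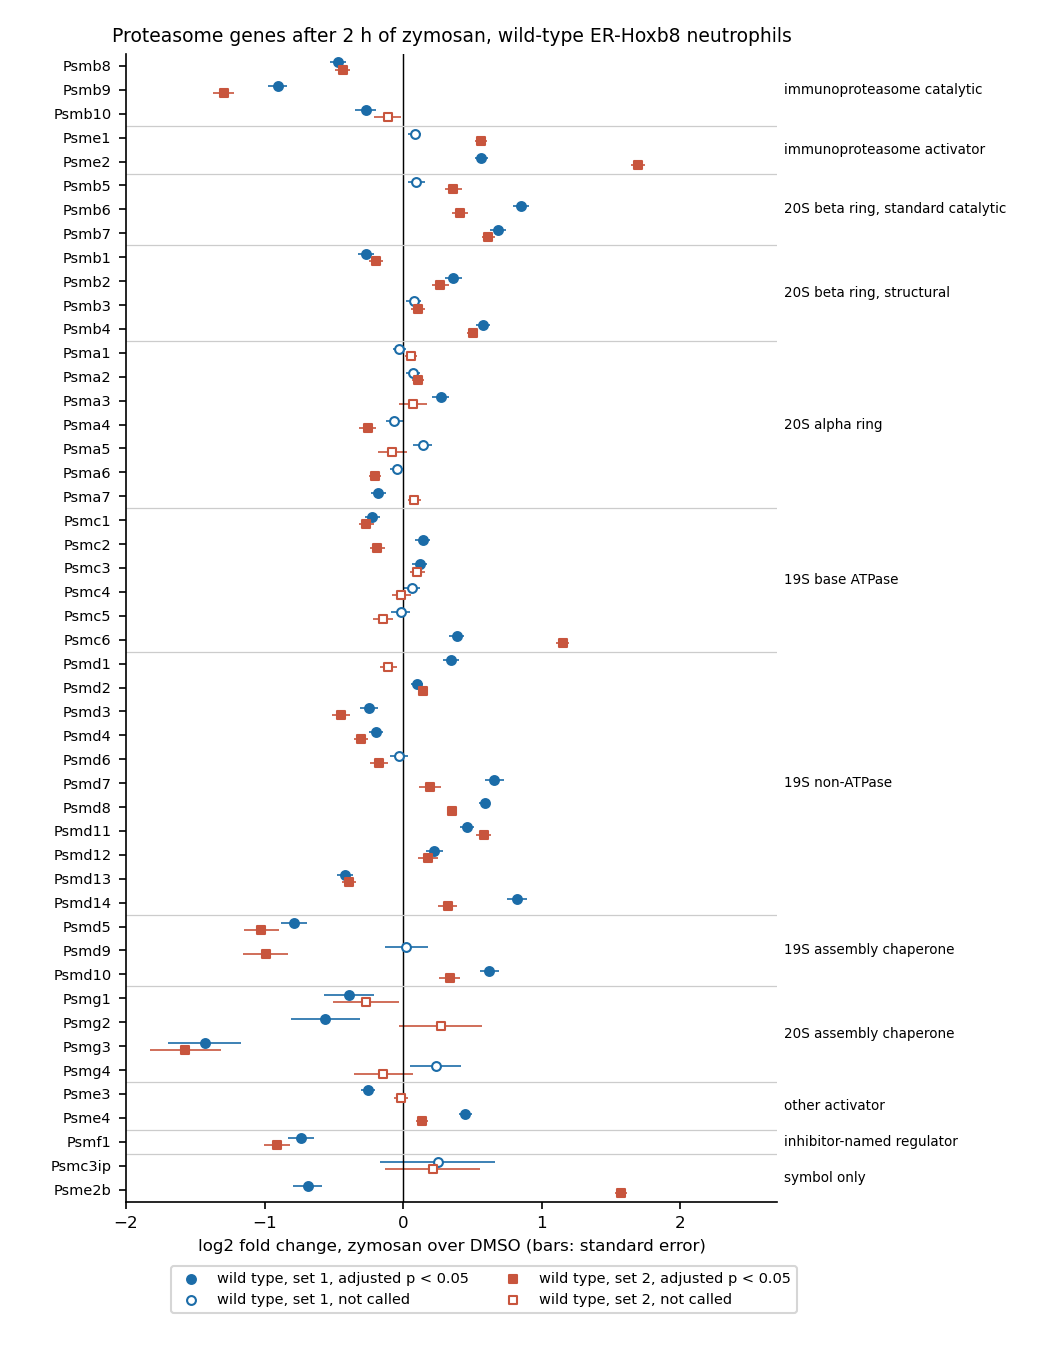
Log2 change, zymosan over DMSO, of each of 48 proteasome genes in WT cells of set 1 (blue circles) and set 2 (red squares), grouped by role, with bars of 1 SE and filled symbols for adjusted p under 0.05 (TMM scaling, 2 libraries per group). Psmb9 sits at -0.90 and -1.29 while Psmb6 sits at 0.85 and 0.41. Total-count scaling moves all changes down and so cannot turn a lower call. It changes the sign of 16 of the 18 higher calls of set 1 and 16 of the 19 of set 2.

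The catalytic exchange partners moved apart. Psmb9, the immunoproteasome form of the caspase-like subunit, had 16.6 and 16.2 CPM with zymosan and 30.8 and 30.6 CPM with DMSO in WT cells of set 1. In set 2 it had 13.03 and 11.8 CPM with zymosan, against 31.2 and 29.7 CPM with DMSO. The zymosan libraries lay far below the DMSO libraries in both sets, at a log2 change (± SE) of -0.90 ± 0.07, adjusted p = 8.91e-18 in set 1 and -1.29 ± 0.08, adjusted p = 2.49e-26 in set 2 (edgeR's quasi-likelihood test, as for every adjusted p below). Psmb8, the form of the chymotrypsin-like subunit, had 42.1 and 46.4 CPM with zymosan and 61.0 and 62.0 CPM with DMSO in set 1, and 34.6 and 30.2 CPM against 45.7 and 42.0 CPM in set 2. Its groups did not overlap either, at -0.47 ± 0.06, adjusted p = 3.89e-11 and -0.44 ± 0.06, adjusted p = 1.93e-10. Psmb10, the form of the trypsin-like subunit, was called lower in set 1 (-0.27 ± 0.07, adjusted p = 0.000955, but 0.072 under RLE scaling) and not in set 2 (-0.11 ± 0.10, adjusted p = 0.319).

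The constitutive partners went the other way on this scale. Psmb6 had 53.6 and 54.1 CPM with zymosan, against 30.1 and 29.6 CPM with DMSO in set 1, and 45.4 and 44.98 CPM against 34.5 and 33.5 CPM in set 2. Psmb7 had 59.7 and 61.2 CPM against 39.2 and 35.9 CPM in set 1 and 68.5 and 71.2 CPM against 45.3 and 46.0 CPM in set 2. All zymosan libraries lay above all DMSO libraries for both genes. Psmb6 rose by 0.85 ± 0.06 and 0.41 ± 0.06 and Psmb7 by 0.69 ± 0.05 and 0.61 ± 0.05, of which only Psmb6 in set 1 kept its sign under total-count scaling. Psmb5 was called higher in set 2 (0.36 ± 0.06, adjusted p = 2.57e-07), with the sign lost under total-count scaling, and was not called in set 1 (0.10 ± 0.06).

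Ratios within a library avoid the scaling question. The ratio of Psmb9 to Psmb6, each per kb, was 0.156 ± 0.00347 with zymosan and 0.526 ± 0.00402 with DMSO in WT cells of set 1 (SD, n = 2 each), and 0.141 ± 0.00857 against 0.458 ± 0.00539 in set 2. Psmb8 to Psmb5 was 0.364 ± 0.0129 with zymosan and 0.541 ± 0.00861 with DMSO in set 1, and 0.269 ± 0.0289 against 0.467 ± 0.0266 in set 2. Psmb10 to Psmb7 was 0.683 ± 0.0287 against 1.33 ± 0.0673 in set 1 and 0.336 ± 0.00953 against 0.555 ± 0.00319 in set 2. All 3 ratios were lower with zymosan in each set, by more than the spread between libraries. With 2 libraries per group no exact permutation test can pass 0.05, the smallest 2-sided p being 0.333, so the ratios carry no test.

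The same ratios were lower with zymosan in the 4 labelled lines. Psmb9 to Psmb6 was 0.382 ± 0.0306 with zymosan and 1.12 ± 0.0228 with DMSO in cells labelled CEBPB-/-, and 0.663 ± 0.0522 against 1.11 ± 0.00294 in cells labelled JUNB-/-. It was 0.312 ± 0.0443 against 0.883 ± 0.0284 in cells labelled IRF5-/- and 0.318 ± 0.00530 against 0.854 ± 0.0951 in cells labelled RELB-/-. Psmb8 to Psmb5 with zymosan lay between 0.301 (labelled RELB-/-) and 0.460 (labelled JUNB-/-), against 0.593 to 0.788 with DMSO over the 4 lines. Psmb10 to Psmb7 lay between 0.292 (labelled IRF5-/-) and 0.562 (labelled CEBPB-/-) with zymosan, against 0.473 to 1.254 with DMSO over the 4 lines. With zymosan, the Psmb9 to Psmb6 ratio of cells labelled JUNB-/- stood at 0.663 beside 0.156 in WT cells of the same set.

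**Figure D2:**
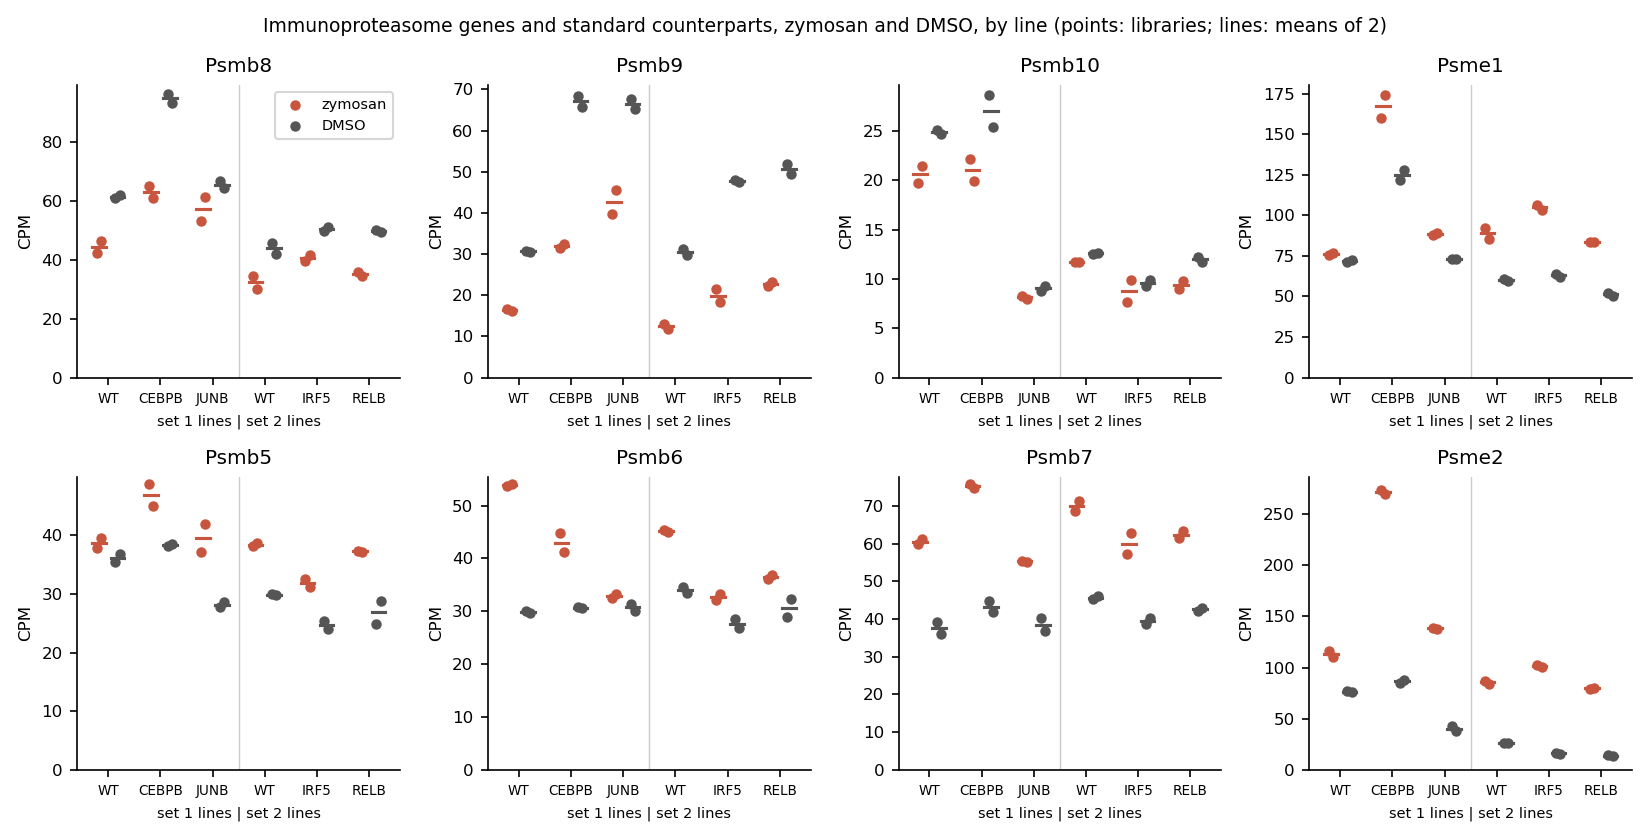
CPM per library (TMM scaling) of the immunoproteasome genes Psmb8, Psmb9, Psmb10, Psme1 and Psme2 and the standard subunits Psmb5, Psmb6 and Psmb7, with zymosan (left of each pair) and DMSO (right) in each line of set 1 and set 2; points are libraries and short lines are means of 2. Psmb9 is lower with zymosan in every line, and Psme2 is higher with zymosan in every line on this scale, a direction that total-count scaling turns round only in WT cells of set 1.

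The PA28 activator genes were on the other side of 0 from their catalytic companions under TMM scaling, while total-count scaling left Psme2 in set 2 as the single higher one. Psme2 had 116 and 110.3 CPM with zymosan, against 76.6 and 76.0 CPM with DMSO in WT cells of set 1. In set 2 it had 86.8 and 84.0 CPM with zymosan and 26.6 and 26.1 CPM with DMSO. The groups did not overlap in either set; the log2 change was 0.57 ± 0.04, adjusted p = 2.31e-17 in set 1, where total-count scaling gave -0.14, and 1.70 ± 0.05, adjusted p = 1.2e-45 in set 2, where the sign held. Its partner Psme1 rose in set 2 (92.2 and 85.7 CPM with zymosan, 60.5 and 59.7 CPM with DMSO, log2 0.56 ± 0.04, adjusted p = 2.6e-21), with the sign lost under total-count scaling, and was not called in set 1 (0.08 ± 0.05).

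Psme2 and Psme2b are copies, so reads may have been split between them. Psme2b held between 4.64% and 12.5% of their joint CPM in set 1 libraries. Its share was between 55.6% and 68.6% in set 2, and in tissues between 70.9% and 79.0%. Summed over both genes, the zymosan change was 0.46 in WT cells of set 1 and 1.62 in WT cells of set 2. In the labelled lines it was 1.55 (CEBPB-/-), 1.72 (JUNB-/-), 2.22 (IRF5-/-) and 2.14 (RELB-/-).

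Few genes of the alpha ring were called. In set 1, 1 of 7 alpha genes was called higher (Psma3, 0.27 ± 0.06) and 1 lower (Psma7, -0.18 ± 0.06), and in set 2, 1 was called higher (Psma2, 0.11 ± 0.05) and 2 lower (Psma4, -0.25 ± 0.06, and Psma6, -0.20 ± 0.04). Both higher calls lost their sign under total-count scaling. Psma1, at the small end, changed by -0.03 ± 0.05 and 0.06 ± 0.04 and was not called. In the structural beta ring, Psmb4 (0.58 ± 0.05 and 0.50 ± 0.04) and Psmb2 (0.36 ± 0.06 and 0.27 ± 0.06) were called higher in both sets, with the sign lost under total-count scaling, while Psmb1 was called lower in both (-0.27 ± 0.05 and -0.19 ± 0.05).

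Subunits of the 19S cap divided. Of 11 non-ATPase genes, 7 were called higher and 3 lower in set 1, and 6 higher and 4 lower in set 2, with all these higher calls but Psmd14 in set 1 reversed under total-count scaling. Psmd14, the deubiquitinase that strips ubiquitin chains from substrates, had 32.5 and 33.8 CPM with zymosan and 18.6 and 18.9 CPM with DMSO in set 1, at 0.82 ± 0.07, adjusted p = 4.08e-16. In set 2 it changed by 0.32 ± 0.07. Its dimer partner Psmd7 changed by 0.66 ± 0.07 and 0.19 ± 0.08, Psmd8 by 0.59 ± 0.04 and 0.35 ± 0.04, and Psmd11 by 0.46 ± 0.05 and 0.58 ± 0.05. On the lower side were the lid subunits Psmd3 (-0.25 ± 0.06 and -0.45 ± 0.07) and Psmd13 (-0.42 ± 0.06 and -0.39 ± 0.05) and the ubiquitin receptor Psmd4 (-0.19 ± 0.05 and -0.30 ± 0.05).

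Of the 6 ATPases of the 19S base, 3 were called higher and 1 lower in set 1, and 1 higher and 2 lower in set 2, with all but Psmc6 in set 2 of the higher calls reversed under total-count scaling. Psmc6 had 58.6 and 61.2 CPM with zymosan, against 47.9 and 43.6 CPM with DMSO in set 1, and 89.9 and 91.0 CPM against 40.3 and 40.9 CPM in set 2. It was above DMSO in every zymosan library, at 0.39 ± 0.05, adjusted p = 1.94e-09 and 1.15 ± 0.05, adjusted p = 2.45e-36. Psmc1 was called lower in both, with changes of -0.22 ± 0.05 and -0.26 ± 0.05.

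Some assembly factors and Psmf1 fell as well, and Psmd5, Psmg3 and Psmf1 were chosen after their values were seen, being under the level set for named genes. Psmd5, a chaperone that holds the ATPase ring apart from the core, had 9.37 and 8.63 CPM with zymosan and 15.2 and 15.8 CPM with DMSO in set 1, and 4.29 and 5.21 CPM against 9.40 and 9.96 CPM in set 2. It fell without overlap, at -0.79 ± 0.10, adjusted p = 1.14e-10 and -1.02 ± 0.12, adjusted p = 1.59e-11. Psmg3 was at 1.14 and 0.719 CPM with zymosan and 2.52 and 2.39 CPM with DMSO in set 1, at -1.43 ± 0.26, adjusted p = 2.65e-06, and changed by -1.57 ± 0.26 in set 2. Psmf1, which encodes the regulator PI31, had 8.14 and 8.78 CPM against 13.8 and 14.5 CPM in set 1 and 8.49 and 8.75 CPM against 16.6 and 15.8 CPM in set 2, with changes of -0.74 ± 0.10 and -0.91 ± 0.09. The base chaperone Psmd10 was called higher in both (0.62 ± 0.07 and 0.34 ± 0.08), with the sign lost under total-count scaling.

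Over all 6 zymosan comparisons, 6 proteasome genes (12.5% of 48) were called higher every time, Psmb2, Psmb4, Psmb7, Psmc6, Psmd14 and Psme2, against 21.5% of the 12395 genes tested in both sets; total-count scaling turned at least 1 of these calls in each gene. Called lower every time were 10 (20.8%, against 22.3% of all genes): Psmb1, Psmb8, Psmb9, Psmc1, Psmd3, Psmd4, Psmd5, Psmd13, Psmf1 and Psmg3. Among these, Psmb9 ranged from -1.29 (WT, set 2) to -0.64 (labelled JUNB-/-) and Psmb8 from -0.59 (labelled CEBPB-/-) to -0.19 (labelled JUNB-/-). That last value moved between -0.316 and -0.0996 when 1 library was left out, so the Psmb8 call for JUNB-/- is not firm.

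The response to zymosan differed between labelled lines and WT cells for some members, tested as interactions. The lines labelled CEBPB-/- and JUNB-/- share the WT cells of set 1, and those labelled IRF5-/- and RELB-/- share the WT cells of set 2, so results within a set are not independent. Psme2 had a larger response in each line. In cells labelled CEBPB-/- it had 274 and 269.7 CPM with zymosan and 85.0 and 88.3 CPM with DMSO, and in cells labelled JUNB-/- 138 and 138 CPM and 42.7 and 37.7 CPM. In cells labelled IRF5-/- it had 103 and 100.2 CPM with zymosan and 16.3 and 15.8 CPM with DMSO, and in cells labelled RELB-/- 78.9 and 80.2 CPM and 14.4 and 13.1 CPM. With DMSO, 3 of the 4 lines started below WT cells, and with zymosan the lines of set 1 ended above WT cells while in set 2 the line labelled IRF5-/- ended above and the line labelled RELB-/- below them. The differences in log2 change were 1.08 ± 0.06, adjusted p = 3.39e-22 (CEBPB-/-), 1.21 ± 0.07, adjusted p = 3.56e-23 (JUNB-/-), 0.97 ± 0.07, adjusted p = 5.78e-19 (IRF5-/-) and 0.83 ± 0.08, adjusted p = 9.61e-16 (RELB-/-). Summed with Psme2b they were 1.10, 1.26, 0.60 and 0.52.

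In cells labelled CEBPB-/-, zymosan moved 19 proteasome genes higher (background 35.1%) and 18 lower (background 38.4%), or 3 and 43 under total-count scaling. The difference from WT was called for 9 as higher (background 24.4%) and 13 as lower (background 16.7%), or 5 and 26 under total-count scaling, 10 and 7 with only the 4 groups compared in the fit, and 7 and 21 without WT DMSO library 1. All 3 chaperones of the 19S base were among the lower ones: Psmd5 (-1.02 ± 0.19, adjusted p = 5.86e-06), Psmd10 (-0.98 ± 0.11, adjusted p = 3.2e-11) and Psmd9 (-0.84 ± 0.25, adjusted p = 0.00514). Psmd7 (0.56 ± 0.12), Psmc6 (0.51 ± 0.08) and Psmd14 (0.45 ± 0.11) had larger increases than in WT cells, a sign that held under total-count scaling; that of Psmd14 was not called without CEBPB-/- DMSO library 2 (adjusted p = 0.165).

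In cells labelled JUNB-/-, 12 genes were called higher with zymosan (background 36.5%) and 20 lower (background 36.7%), or 2 and 41 under total-count scaling. The difference from WT was higher for 9 (background 28.1%) and lower for 16 (background 15.4%), or 4 and 24 under RLE scaling. Without any 1 of the 4 DMSO libraries or JUNB-/- zymosan library 2, 4 or 5 were higher and 16 to 24 lower. The lower ones included 5 of 6 base ATPases and 7 of 11 non-ATPase subunits of the 19S cap, and none of these was called higher. Psmc1, an ATPase of the base, had 21.5 and 23.3 CPM with zymosan and 55.8 and 54.6 CPM with DMSO in cells labelled JUNB-/-, against 48.3 and 48.7 CPM and 56.0 and 57.2 CPM in WT cells. Its difference was -1.07 ± 0.09, adjusted p = 1.95e-16. Psmb6 had 32.5 and 33.3 CPM with zymosan and 31.4 and 30.1 CPM with DMSO, so the rise seen in WT cells was not called there (0.10 ± 0.06, adjusted p = 0.176), and the difference was -0.75 ± 0.09, adjusted p = 5.36e-11. Psmd12 (-0.77 ± 0.10), Psmd1 (-0.69 ± 0.09) and Psmd8 (-0.62 ± 0.06) also differed downward. Psmb8 (0.28 ± 0.08, adjusted p = 0.00283) and Psmb9 (0.27 ± 0.09, adjusted p = 0.0138) differed upward, but each call was lost under RLE scaling (adjusted p = 0.075 and 0.167) and in 6 of 8 fits without 1 library.

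Fewer differences from WT were called in set 2. In cells labelled IRF5-/-, 14 genes were called higher with zymosan (background 34.3%) and 21 lower (background 35.4%), or 3 and 43 under total-count scaling, and the difference was higher for 4 (background 16.5%) and lower for 8 (background 16.8%), or 3 and 17 under total-count scaling and 6 and 4 under RLE scaling. In cells labelled RELB-/-, 17 were called higher (background 35.2%) and 21 lower (background 37.5%), or 2 and 44 under total-count scaling, and the difference was higher for 2 (background 16.1%) and lower for 8 (background 15.3%), or 6 and 4 under RLE scaling. The lean of these differences turned with single libraries: without any 1 of the 4 zymosan libraries compared, 7 to 9 were higher and 2 or 3 lower for IRF5-/-, and 5 to 8 higher and 2 to 4 lower for RELB-/-. Psmd5 fell further than in WT cells in both lines, with differences of -1.57 ± 0.23, adjusted p = 1.72e-08 (IRF5-/-) and -1.21 ± 0.19, adjusted p = 3.33e-07 (RELB-/-). Psmd1, the scaffold of the base, also differed downward (-0.46 ± 0.10 and -0.34 ± 0.09), though the call for RELB-/- was lost without RELB-/- zymosan library 1 or either WT zymosan library (adjusted p = 0.0516 to 0.259). No difference was called for Psmb8, Psmb9 or Psmb10 in either line; the values of Psmb9 were 0.04 ± 0.11 and 0.13 ± 0.10, which does not show equal responses.

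With DMSO, cells labelled RUNX1-/- had higher levels of nearly the whole set. Of 48 genes tested, 42 were called higher than in WT cells (background 38.2% of 13608 genes) and 3 lower (background 37.1%). Total-count scaling moved all log2 changes up by 0.36, so it could turn only the 3 lower calls, and none turned. The median log2 change was 0.42 over the proteasome genes and 0.01 over all genes. The calls took in 7 of 7 alpha genes, 4 of 4 structural beta genes, 3 of 3 standard catalytic genes, 6 of 6 base ATPases, 9 of 11 non-ATPase genes and 4 of 4 core chaperones, although Psma7 (0.08) was not called in 3 of 4 fits without 1 library. Psmd8 (-0.06), Psmd10 (0.01) and Psmd13 (0.05) were not called.

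Psmb10 showed the widest gap. It had 52.7 and 51.1 CPM in cells labelled RUNX1-/-, against 18.7 and 18.7 CPM in WT cells, at 1.47 ± 0.06, adjusted p = 1.18e-21. Its standard partner Psmb7 had 82.5 and 79.8 CPM against 67.2 and 68.0 CPM (0.26 ± 0.04). Psmb5 had 87.7 and 86.8 CPM in cells labelled RUNX1-/- and 44.4 and 44.2 CPM in WT cells, with no overlap, at 0.98 ± 0.04, adjusted p = 7.29e-21. In the 19S cap, the lid subunit Psmd7 had 61.5 and 61.9 CPM against 30.9 and 28.4 CPM (1.06 ± 0.05, adjusted p = 3.38e-19). The ATPase Psmc5 had 67.9 and 68.3 CPM against 33.5 and 33.2 CPM (1.03 ± 0.05, adjusted p = 7.62e-20). Both gaps were many times the spread between libraries. Psmd5, the base chaperone, had 27.4 and 30.0 CPM against 13.9 and 14.7 CPM (1.00 ± 0.07). Psma5 (0.92 ± 0.07), Psmd1 (0.91 ± 0.04), Psmd3 (0.84 ± 0.05), Psma3 (0.82 ± 0.07), Psmd2 (0.73 ± 0.03), Psmd14 (0.72 ± 0.05) and Psmd12 (0.69 ± 0.05) came next, leaving aside genes below a mean log2 CPM of 4. The core chaperones Psmg4 (8.26 and 8.31 CPM against 3.10 and 3.72 CPM) and Psmg2 (4.80 and 5.10 CPM against 1.90 and 2.02 CPM) were also higher, and these low-level genes were chosen after their values were seen.

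The 3 genes lower in cells labelled RUNX1-/- were Psmb9, Psme4 and Psmc3ip. Psmb9 had 30.4 and 30.0 CPM in cells labelled RUNX1-/-, against 46.3 and 44.0 CPM in WT cells, at -0.58 ± 0.05, adjusted p = 4.14e-12. Psme4, the nuclear activator PA200, had 71.1 and 72.6 CPM against 107 and 105 CPM, at -0.56 ± 0.04, adjusted p = 6.77e-16. The catalytic subunits of the immunoproteasome thus split, with Psmb10 and Psmb8 (0.30 ± 0.04) higher and Psmb9 lower. Per length, Psmb9 to Psmb6 was 0.199 ± 0.00420 against 0.458 ± 0.00539 in WT cells, and Psmb10 to Psmb7 was 1.28 ± 0.00351 against 0.555 ± 0.00319 (SD, n = 2 each). Beside these values, 8 of 8 neutrophil markers were called lower, with only the sign of Mmp8 turned by the total-count shift (Ly6g -5.49, S100a9 -2.69), summing to 19310 to 19610 CPM in cells labelled RUNX1-/- and 69280 to 72560 CPM in WT cells. The eosinophil and mast cell list summed to 767 to 785 CPM and 5137 to 5250 CPM, and the platelet genes to 10.53 to 11.4 CPM and 35.99 to 36.8 CPM. The dendritic cell genes summed to 324 CPM in each library of cells labelled RUNX1-/- and 95.4 to 97.1 CPM in WT cells. The endothelium and keratinocyte list summed to 224 to 226 CPM and 28.2 to 28.9 CPM, with Cdh5, Krt5 and Krt14 at 0 in cells labelled RUNX1-/-, so that Pecam1 made up the whole sum there. Their part in the result was not tested.

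**Figure D3:**
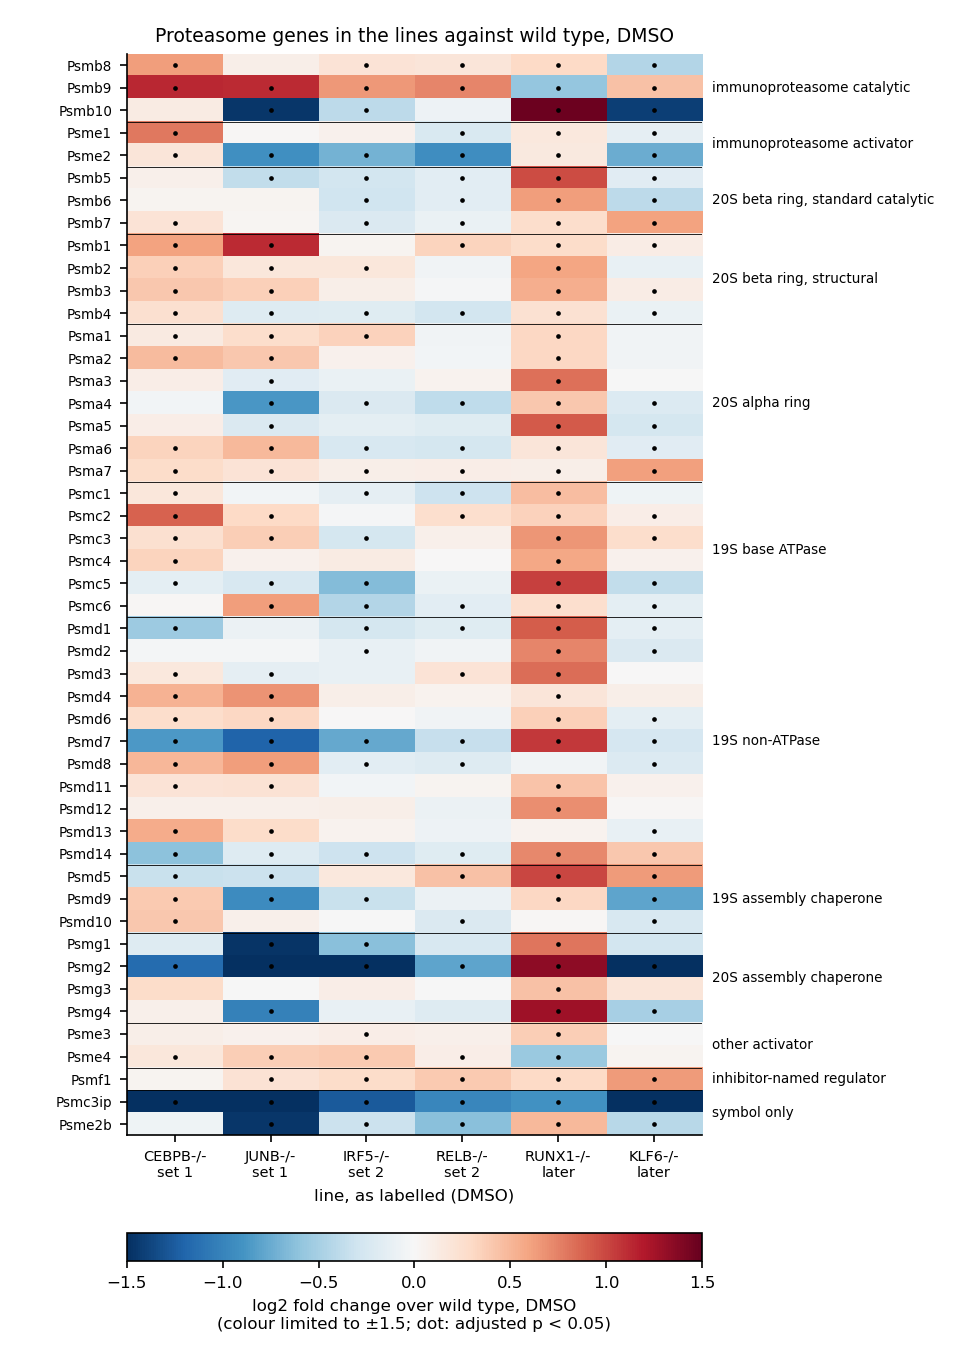
Log2 change of each proteasome gene over WT cells with DMSO in 6 labelled lines, as colour (limited to 1.5 in either direction); a dot marks adjusted p under 0.05, TMM scaling, 2 libraries per group. The column of cells labelled RUNX1-/- holds 42 higher calls of 48. Total-count scaling moves all changes up by 0.36 there, so it cannot turn a higher call. In the columns of CEBPB-/-, JUNB-/-, IRF5-/- and KLF6-/- it moves them down. There 13 of 26, 13 of 18, 2 of 8 and 3 of 10 higher calls turn, in that order.

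Cells labelled KLF6-/- share these WT libraries and leaned to lower values, with 10 genes called higher (background 31.2%) and 24 lower (background 35%), or 7 and 32 under total-count scaling. Psmb10 had 7.26 and 6.77 CPM in cells labelled KLF6-/-, against the 18.7 and 18.7 CPM in WT cells, at -1.41 ± 0.09, adjusted p = 7.58e-16. Psmb8 (49.2 and 46.7 CPM against 67.8 and 62.2 CPM, -0.44 ± 0.05, adjusted p = 1.69e-09) and Psme2 (23.7 and 22.7 CPM against 39.4 and 38.6 CPM, -0.75 ± 0.06, adjusted p = 6.49e-13) were lower as well, and Psmb9 was higher (61.6 and 60.5 CPM against 46.3 and 44.0 CPM, 0.44 ± 0.05, adjusted p = 1.58e-09). The libraries of the groups did not overlap for any of these. Psmb7 (103 and 101 CPM against 67.2 and 68.0 CPM, 0.60 ± 0.04) and the alpha subunit Psma7 (127 and 132 CPM against 85.2 and 84.2 CPM, 0.61 ± 0.04) were higher, and both kept that sign under total-count scaling, as Psmb9 did. The ratio of Psmb10 to Psmb7 was 0.138 ± 0.00486, against 0.555 ± 0.00319 in WT cells, and that of Psmb9 to Psmb6 was 0.814 ± 0.0521, against 0.458 ± 0.00539. Neutrophil markers summed to 80720 to 85000 CPM in these cells, the eosinophil and mast cell list to 621 to 633 CPM, the dendritic cell genes to 22.04 to 22.2 CPM and the platelet genes to 4.50 to 4.54 CPM. The 5 monocyte and macrophage genes, all called lower, summed to 1130 to 1141 CPM, against 1610 to 1615 CPM in WT cells. Their part in the result was not tested.

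In set 1, cells labelled CEBPB-/- had 26 genes called higher with DMSO (background 33.6%) and 7 lower (background 36.9%), or 9 and 29 under total-count scaling. Psmb9 had 68.4 and 65.8 CPM in cells labelled CEBPB-/-, against 30.8 and 30.6 CPM in WT cells, at 1.13 ± 0.05, adjusted p = 4.84e-26. Psme1 (0.80 ± 0.04, adjusted p = 8.82e-24), Psmb8 (0.62 ± 0.05, adjusted p = 7.13e-17) and the ATPase Psmc2 (0.89 ± 0.05, adjusted p = 7.7e-23) were also higher, and all 4 kept their sign under total-count scaling. Psmd7 (-0.86 ± 0.08), Psmd14 (-0.62 ± 0.08) and Psmd1 (-0.55 ± 0.06) were lower. Psmb5 (0.08 ± 0.06), Psmb6 (0.04 ± 0.06) and Psmb10 (0.12 ± 0.07) were not called.

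Cells labelled JUNB-/- had 18 called higher (background 35.4%) and 18 lower (background 41.1%), or 3 and 42 under total-count scaling. Psmb9 had 67.8 and 65.3 CPM, against the 30.8 and 30.6 CPM in WT cells (1.12 ± 0.06, adjusted p = 5.01e-26), while Psmb10 had 8.83 and 9.27 CPM, against 25.1 and 24.7 CPM (-1.46 ± 0.08, adjusted p = 4.22e-23). These genes of 2 exchange pairs thus stood on opposite sides of WT without overlap, and the higher sign of Psmb9 held under total-count scaling. Psme2 (-0.92 ± 0.05), Psmd7 (-1.20 ± 0.09) and Psma4 (-0.87 ± 0.06) were lower, and Psmb1 (1.12 ± 0.05) was higher under both scalings. Of the core chaperones 3 of 4 were called lower: Psmg2 (-2.86 ± 0.34), Psmg1 (-1.48 ± 0.20) and Psmg4 (-1.02 ± 0.22), low-level genes chosen after their values were seen. Neutrophil markers summed to 55750 to 57060 CPM in cells labelled CEBPB-/- and 68380 to 75250 CPM in cells labelled JUNB-/-, against 25530 to 27180 CPM in WT cells, and the eosinophil and mast cell list to 514 to 536, 221 to 225, and 1635 to 1639 CPM in the same order. The dendritic cell genes summed to 58.2 to 59.1, 2.34 to 2.42, and 71.0 to 71.5 CPM in that order and the platelet genes to 5.23 to 5.76, 2.82 to 3.89, and 32.3 to 32.5 CPM. Their part in the result was not tested.

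In set 2, cells labelled IRF5-/- had 8 called higher (background 35%) and 22 lower (background 29.6%), or 3 and 27 under total-count scaling and 5 and 22 without WT DMSO library 1, and cells labelled RELB-/- had 9 higher (background 32.1%) and 18 lower (background 27.3%). Psmb9 had 48.0 and 47.5 CPM in cells labelled IRF5-/- and 51.9 and 49.5 CPM in cells labelled RELB-/-, against 31.2 and 29.7 CPM in WT cells, at 0.65 ± 0.05, adjusted p = 2.48e-18 and 0.74 ± 0.05, adjusted p = 2.27e-21. Psme2 had 16.3 and 15.8 CPM and 14.4 and 13.1 CPM in those lines, against 26.6 and 26.1 CPM in WT cells, at -0.71 ± 0.06, adjusted p = 5.1e-18 and -0.94 ± 0.06, adjusted p = 1.05e-23. Neither line overlapped WT for these genes, with Psmb9 above and Psme2 below. The higher sign of Psmb9 held under total-count scaling, which moved all changes down in both lines and so could not turn Psme2. All 3 standard catalytic genes were called lower in both lines: Psmb5 (-0.28 and -0.15), Psmb6 (-0.30 and -0.16) and Psmb7 (-0.21 and -0.10), but for RELB-/- each of these calls was lost in at least 1 fit without a library, that of Psmb7 in 4 of 4 (adjusted p = 0.057 to 0.155) and those of Psmb5 and Psmb6 without RELB-/- DMSO library 1 (0.508 and 0.29). In cells labelled IRF5-/-, Psmd7 (-0.77 ± 0.08) and Psmc5 (-0.65 ± 0.07) were also lower. The eosinophil and mast cell list summed to 651 to 658 CPM (labelled IRF5-/-) and 426 to 434 CPM (labelled RELB-/-), against 3471 to 3539 CPM in WT cells. Neutrophil markers summed to 60070 to 62130 CPM (labelled IRF5-/-) and 48870 to 49270 CPM (labelled RELB-/-), against 46810 to 48910 CPM in WT cells, the dendritic cell genes to 19.6 to 19.9 and 7.80 to 8.60 CPM against 64.3 to 65.6 CPM, and the platelet genes to 5.30 to 6.09 and 4.59 to 4.76 CPM against 24.3 to 24.9 CPM. The 5 monocyte and macrophage genes summed to 745.1 to 750.7 and 982.3 to 985.5 CPM in that order, against 1088 to 1089 CPM in WT cells. Their part in the result was not tested.

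Genes that work with the proteasome were described by lists of fixed names, whose counts stand beside shares over all genes of 35.7% higher and 39.9% lower in WT cells of set 1, 36.3% and 32.1% in set 2 and 38.2% and 37.1% in cells labelled RUNX1-/-. In WT cells, the list of 6 maturation and control genes had 3 called higher and 3 lower in set 1 and 3 and 2 in set 2, and 2 of the 3 higher signs in each set turned with the total-count shift. Nfe2l2, an activator of stress genes, changed by 1.52 ± 0.03 and 1.31 ± 0.02, above the total-count shift in both sets. Ddi2, the protease that activates Nfe2l1, changed by -2.54 ± 0.05 and -1.52 ± 0.07. Over WT cells with DMSO, which are also the DMSO libraries of set 2, cells labelled RUNX1-/- had Nfe2l2 at -1.61 ± 0.02 and Ddi2 at 1.03 ± 0.04, while the maturation factor Pomp was at 0.66 ± 0.04. Of 14 associated and shuttle factors, 6 were called higher and 6 lower in each WT set, near the shares over all genes, with 2 (set 1) and 3 (set 2) of the higher signs turned by the shift. The cap-bound thioredoxin Txnl1 changed by 2.53 ± 0.05 and 2.44 ± 0.04, and Zfand2a, an arsenite-inducible cap-binding protein, by 2.04 ± 0.05 and 1.13 ± 0.05, above the shift in both sets. In cells labelled RUNX1-/- 9 of the 14 were called higher and 3 lower. The upward shift there could turn only lower signs, and it turned 1 of the 3, that of Zfand5. The deubiquitinase Usp14 was among the higher ones (1.18 ± 0.07). Of 9 ubiquitin and p97 genes, 6 were called higher and 2 lower in set 1, 3 and 2 in set 2 and 3 and 4 in cells labelled RUNX1-/-. The shift turned 5 of 6 higher signs in set 1 and 2 of 3 in set 2. The heat shock list of 8 had 7 higher and 1 lower in set 1 and 6 and 1 in set 2, of which 1 and 2 higher signs turned, with Hsp90aa1 at 1.77 ± 0.04 and 2.02 ± 0.03.

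The transporter genes beside Psmb9 and Psmb8 were called lower too. Tap1, which lies between them, changed with zymosan in WT cells by -0.94 ± 0.05, adjusted p = 1.9e-23 in set 1 and -1.28 ± 0.05, adjusted p = 2.52e-35 in set 2. Tap2, the other transporter chain, on the far side of Psmb8, changed by -0.65 ± 0.05 and -0.55 ± 0.04. Total-count scaling, a downward move here, could not turn these lower signs. Some other class I genes were called higher: Nlrc5, the transactivator of class I genes, by 1.58 ± 0.07 and 2.68 ± 0.11, and H2-K1, a class I heavy chain, by 1.06 ± 0.03 and 0.91 ± 0.02, above the total-count shift in each set. Of the list of 11, 7 were called higher and 3 lower in each WT set, and 5 of the 7 higher signs turned with the total-count shift, while 35.7% of all genes were called higher and 39.9% lower in set 1 and 36.3% and 32.1% in set 2. Of 10 interferon factors and reporters, 5 were called higher and 4 lower in set 1 and 7 and 1 in set 2, of which 2 and 3 higher signs turned, with Gbp5 at 2.14 ± 0.10 and 2.74 ± 0.17. In cells labelled RUNX1-/- 9 of these 10 were called lower (1 sign, that of Irf7, turned with the shift; 37.1% of all genes), and in cells labelled KLF6-/- 10 of 10 (35% of all genes), with Irf8 at -3.06 ± 0.23 and -6.02 ± 0.39.

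The tissue libraries, made as small bulk samples, varied widely. Exudate libraries correlated with each other at Spearman's rho 0.354 to 0.456 across genes, and the number of the 50 proteasome genes at 1 CPM or more was 15 to 25 in exudate, 24 to 28 in membrane, 27 to 42 in blood and 35 to 44 in bone marrow libraries. Only 6 of the 50 reached 1 CPM in all 15 libraries. The fit's common biological coefficient of variation was 1.86, against 0.0278, 0.0190 and 0.0196 in the culture fits. The column names give the tissue, a number of 100 or 300 and m1 to m4, with no statement of what these numbers mark or whether an m number is the same animal in several tissues. All 3 bone marrow libraries carry 100 and both membrane libraries 300, so that for these tissues the number and the tissue cannot be told apart. Exudate libraries 1 and 2 carry 100 and libraries 3 to 5 carry 300, and in blood libraries 1 to 3 carry 100 and libraries 4 and 5 carry 300. With a term for that number, exudate over blood had 0 proteasome genes called, as without it.

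Immunoproteasome catalytic genes had their highest mean sums in membrane and exudate and the standard ones in bone marrow, with no test of these sums. Per kb, Psmb8, Psmb9 and Psmb10 summed to 271 ± 206 CPM in exudate (SD, n = 5), 299 ± 139 in membrane (n = 2), 70.5 ± 48.9 in blood (n = 5) and 61.1 ± 24.1 in bone marrow (n = 3). Psmb5, Psmb6 and Psmb7 summed to 14.9 ± 20.3 CPM in exudate, 43.4 ± 5.62 in membrane, 78.4 ± 53.0 in blood and 121.6 ± 11.1 in bone marrow. The alpha ring summed to 190.9 ± 85.9 CPM in exudate, 189 ± 32.97 in membrane, 249 ± 60.1 in blood and 466.4 ± 40.6 in bone marrow. The exudate range for the immunoproteasome sum, 0.626 to 539 CPM, covered the whole range of bone marrow.

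Psmb8 had 421, 774, 782, 384 and 1.30 CPM in exudate and 913 and 372 CPM in membrane, against 96.9, 321, 13.3, 50.8 and 33.4 CPM in blood and 86.1, 39.3 and 114 CPM in bone marrow. Psmb9 had 165, 245, 141, 124 and 0.229 CPM in exudate and 115 and 157 CPM in membrane, against 36.6, 73.0, 27.3, 9.82 and 80.2 CPM in blood and 24.4, 10.7 and 58.5 CPM in bone marrow. For both, 4 exudate libraries and both membrane libraries lay above all blood and bone marrow libraries, and exudate library 5 lay below all of them. Among libraries carrying 100, Psmb8 in exudate (421 and 774 CPM) lay above bone marrow. Psmb8 changed by 2.57 in exudate over bone marrow (adjusted p = 0.228), and by 2.88 without exudate library 5 (adjusted p = 0.120). Psmb10 was erratic, with 0, 322, 133, 69.7 and 0.152 CPM in exudate. Psme1 had 290.5, 130.4, 85.3, 256 and 264 CPM in exudate and 271 and 205 CPM in membrane, against 7.23 to 119 CPM in blood and 94.0, 63.9 and 85.6 CPM in bone marrow. Psme2 and Psme2b together had 316 to 550 CPM in exudate and 419 to 661 CPM in membrane, against 101 to 386 CPM in blood and 133 to 210 CPM in bone marrow. Exudate and bone marrow did not overlap for this sum, which was not called (1.30, adjusted p = 0.312).

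**Figure D4:**
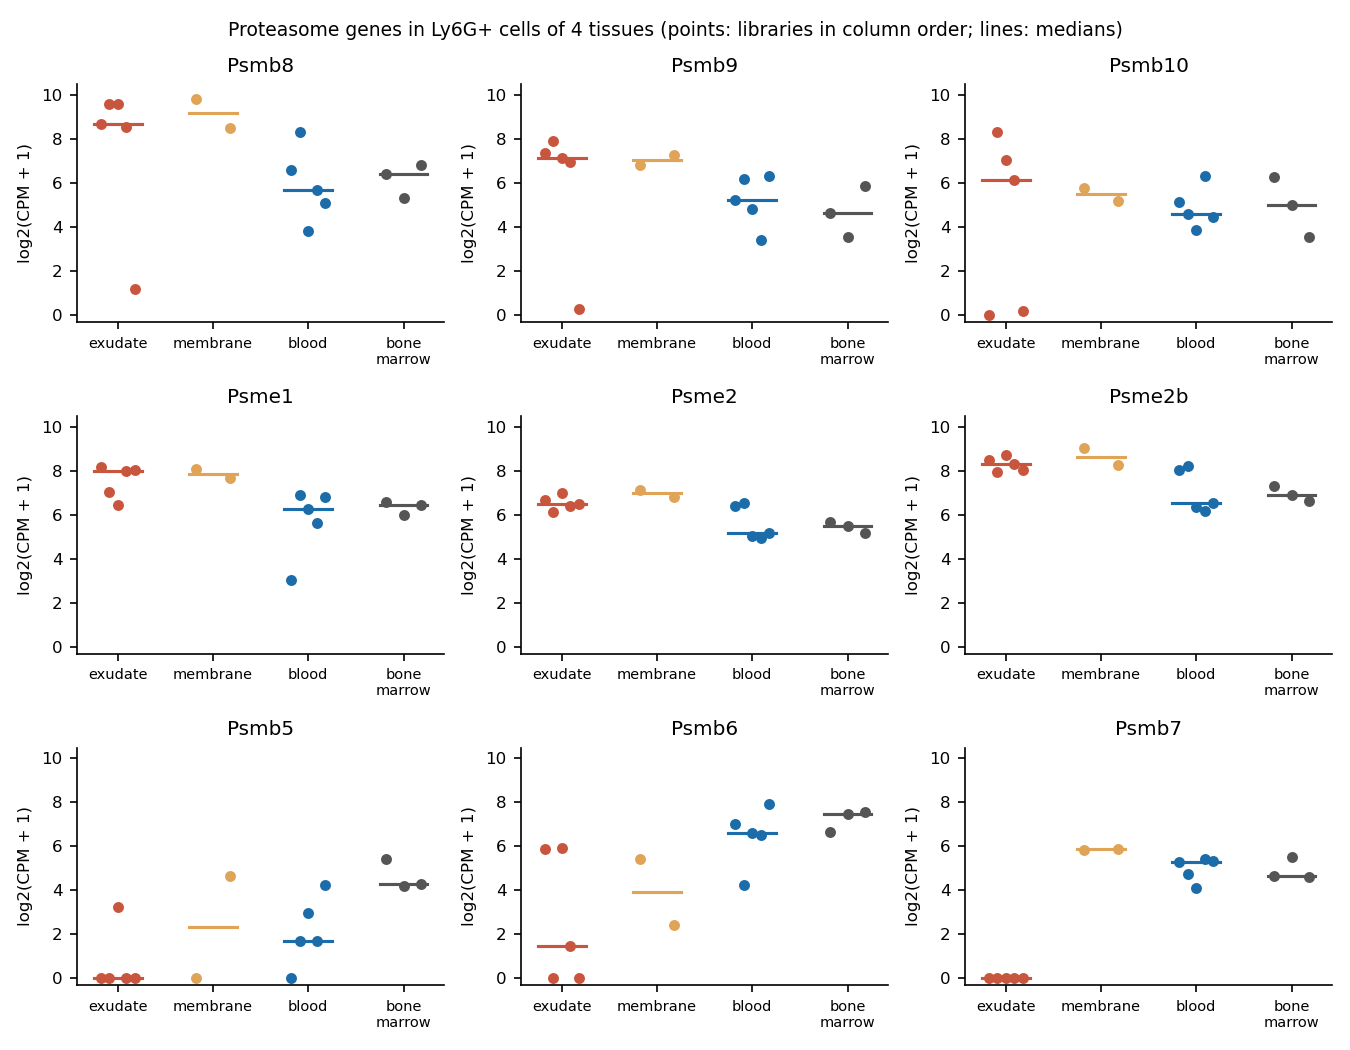
Log2(CPM + 1) of the immunoproteasome genes, Psme2b and the standard catalytic genes Psmb5, Psmb6 and Psmb7 in each sorted neutrophil library from exudate (n = 5), membrane (n = 2), blood (n = 5) and bone marrow (n = 3), with lines at group medians (TMM scaling). Psmb7 is at 0 in all 5 exudate libraries, below all bone marrow libraries under any scaling, and Psmb8 is high in 4 of 5.

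The standard subunit Psmb7 was the single proteasome gene called in tissues. It had 0 counts in each of the 5 exudate libraries, against 690 and 701 counts in the membrane libraries, 281 to 831 in blood and 417 to 561 in bone marrow; the exudate libraries carrying 100 and those carrying 300 were alike at 0. Taking 3 counts over the group as the floor, 0.0497 CPM, this was at least 1165-fold lower than in membrane, 655-fold lower than in blood and 627-fold lower than in bone marrow. The floor covers counting error only, and zeros were common: 12 to 23 of the 50 proteasome genes were at 0 in each exudate library. Only exudate over bone marrow was called (-11.80, adjusted p = 0.0395, a fitted value that is no bound), and the call was lost without any 1 of exudate libraries 1 to 4 or bone marrow libraries 1 to 3 (adjusted p = 0.0736 to 0.128) and in a fit of the 2 groups alone (0.0584), but not without exudate library 5 (0.00882). Psmb5 was at 0 in 4 exudate libraries and at 8.53 CPM in library 3, against 42.6, 17.5 and 18.5 CPM in bone marrow, and Psmb6 had 58.3, 0, 60.7, 1.77 and 0 CPM in exudate, against 98.8, 178 and 186 CPM in bone marrow. Neither was called (adjusted p = 0.343 and 0.321).

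Of 47 genes tested for exudate over bone marrow, 0 were called higher (background 0.0649% of 12330) and 1 lower (background 0.114%). Calls were 0 for membrane over bone marrow and blood over bone marrow (background 0.0162% higher and 0% lower in each), and 0 for exudate over blood, membrane over blood and exudate over membrane (background 0% both ways). At an unadjusted p under 0.05, 0 genes were higher and 7 lower for exudate over bone marrow (background 9.57% and 13.5%), and 2 and 2 for membrane over bone marrow (6.47% and 6.8%). For blood over bone marrow 0 were higher and 2 lower (8.65% and 3.02%), and for exudate over blood 1 and 6 (4.48% and 14.6%). For membrane over blood the counts were 3 and 2 (2.35% and 5.46%), and for exudate over membrane 1 and 4 (3.54% and 4.68%). Psmb8 was among the higher ones for membrane over bone marrow, membrane over blood and exudate over blood. DESeq2 called 5 genes for exudate over bone marrow, 5 for membrane over bone marrow, 4 for exudate over blood, 4 for membrane over blood and 3 for exudate over membrane. The background shares above are those of edgeR. Without shares of all genes called by DESeq2, these counts say nothing about proteasome genes as a set. Beside these values, neutrophil markers summed to 84730 to 343600 CPM in exudate, 106500 to 153700 in membrane, 188900 to 307600 in blood and 201600 to 257000 in bone marrow. The 5 monocyte and macrophage genes summed to 456 to 1447, 1198 to 1229, 955 to 2049 and 1256 to 1304 CPM in that order. The dendritic cell genes summed to 0.534 to 312 CPM in exudate (median 85.3), 121 to 248 in membrane (184), 0.962 to 46.6 in blood (33.9) and 0.0570 to 68.6 in bone marrow (3.17), with Flt3 at 0 in bone marrow. The part of these lists in the tissue values was not tested.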

How the data were processed

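Counts of read pairs per gene were deposited by the authors, 1 table for tissues and 3 for cultures; featureCounts 1.5.0-p2 and 1.6.3 on GRCm38 with a mapping quality minimum of 255 stand in the file headers, and STAR and DESeq2 in the submitters' processing notes. Tissue counting was unstranded and culture counting reverse stranded, per the file headers. The authors' deposited open-chromatin lists give sites and a −log10 adjusted p-value; score and other columns, also deposited, were not used. Another 18 value columns for set 1 that match no sample label were not used, and the 12 columns of the first set 2 table recur unchanged in the later one.

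Each table was fitted once with edgeR 4.0.16 (R 4.3.3, limma 3.58.1): filterByExpr (10, 15, 0.7), TMM, quasi-likelihood tests, Benjamini-Hochberg adjustment over all genes tested. Genes were mapped by Ensembl ID to symbols (99.557% had one). CPM is counts over TMM-scaled library size, so WT cells of set 2 differ between tables. Alternatives were RLE and total-count scaling, no filter, DESeq2 1.42.0, a 2-fold threshold, only the groups compared, a replicate block, leaving out each library and, added after seeing the data, summing Psme2 with Psme2b. The fit was tested on simulated data. Members, lists and tests were chosen with earlier results of these data known. Named by rule were the immunoproteasome genes and standard partners, up to 12 called members with the largest non-overlapping change at a mean log2 CPM of at least 4, the 4 smallest changes, up to 4 called genes per list, and targeted genes.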

Additional observations from a re-analysis of the deposited data

Results flagged for a closer look

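Several members responded to zymosan differently in a labelled line and in WT cells by the interaction test, given as the difference in log2 change, labelled line minus WT. In cells labelled CEBPB-/- these were Psme2 (1.08), Psme1 (0.34) and Psmb6 (-0.36). In cells labelled JUNB-/- they were Psme2 (1.21), Psmb5 (0.40), Psmb8 (0.28), Psmb9 (0.27), Psme1 (0.19), Psmb6 (-0.75) and Psmc1 (-1.07). In cells labelled IRF5-/- they were Psme2 (0.97) and Psme1 (0.17), and in cells labelled RELB-/- Psme2 (0.83). When 1 library was left out, the calls of Psmb8, Psmb9 and Psme1 for JUNB-/- were each lost in 6 of 8 fits, and that of Psme1 for IRF5-/- in 1 of 8. Of these, Psmc1 was lower with zymosan in both groups compared, but fell further in cells labelled JUNB-/-.

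In tissues, an outlier check on CPM flagged 1 library for each of 2 genes. Psmb5 had 8.53 CPM in exudate library 3 and 0 in the others, and Psmb8 had 321 CPM in blood library 2, with the other blood libraries between 13.3 and 96.9 CPM. Of 18 groups checked, chance flags about 1 in 20, a rate that does not hold where most values are 0. With the other exudate libraries at 0, any Psmb5 value above 0 would have been flagged. The check did not flag exudate library 5, which had 1.30 CPM for Psmb8 and 0.229 CPM for Psmb9.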

How the results depend on the processing

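Of 48 genes in each culture comparison, a 2-fold threshold left fewer calls: for zymosan over DMSO 1 in WT cells of set 1 and 6 in WT cells of set 2, 8 in cells labelled CEBPB-/-, 4 JUNB-/-, 6 IRF5-/- and 7 RELB-/-. Over WT with DMSO it left 3 (CEBPB-/-), 9 (JUNB-/-), 2 (IRF5-/-), 0 (RELB-/-), 6 (RUNX1-/-) and 3 (KLF6-/-), and for differences in response 3, 3, 1 and 2 in the first 4 lines. No share of all genes at this threshold stands beside these counts, so they do not set the members apart from other genes. DESeq2 called 7 for the difference of IRF5-/- and 5 of RELB-/-, 17 for RELB-/- over WT and 21 for KLF6-/-. Total-count scaling called 20 for the difference of IRF5-/-. RLE scaling turned no called sign.

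Leaving out 1 library gave 29 to 34 calls in WT cells of set 1, 29 to 31 in set 2, 34 to 36 (CEBPB-/-), 29 to 35 (JUNB-/-), 32 to 34 (IRF5-/-) and 34 to 39 (RELB-/-) for zymosan, 31 to 33, 31 to 34, 26 to 29, 20 to 23, 41 to 44 (RUNX1-/-) and 28 to 30 (KLF6-/-) over WT, and 18 to 28, 21 to 28, 10 to 12 and 7 to 11 for differences. For differences the directions moved more than these totals: 6 to 8 higher and 11 to 21 lower (CEBPB-/-), 4 to 9 and 14 to 24 (JUNB-/-), 3 to 9 and 2 to 8 (IRF5-/-) and 2 to 8 and 2 to 7 (RELB-/-); WT cells of set 2 gave 10 to 17 higher and 14 to 19 lower. 1 sign turned: Psma1 with zymosan in WT cells of set 2 was -0.15 without WT zymosan library 2, with a range of -0.15 to 0.051 over the libraries left out. Same-numbered libraries did not deviate together (correlations -0.038 to 0.094); with a replicate block the calls were 35 in WT cells of set 1, 35 in set 2, 45 in RUNX1-/- and 34 in KLF6-/-, and no count moved by over 1.5 times.

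In tissues the calls for exudate over bone marrow were 3 with no filter, 5 with DESeq2, 0 with only the groups compared and 0 to 2 leaving out a library. Exudate over blood gave 1 with no filter, 4 with DESeq2 and 0 to 1 leaving out a library, membrane over bone marrow 5 and membrane over blood 4 with DESeq2, and exudate over membrane 1 with no filter and 3 with DESeq2. The cause was not tested, and without shares of all genes beside them these counts say nothing about the members as a set. A tissue gene must differ by many times to be called at this spread, and intervals and floors cover counting error only.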
